A study of Mustela putorius furo with 10 samples.

Results

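The genes of the mitogen-activated protein (MAP) kinase cascade and of the dual-specificity phosphatase (DUSP) family were examined in peripheral blood mononuclear cells (PBMC) of cold-exposed and control ferrets. Members were taken by symbol. A gene belonged to the set when its RefSeq ferret symbol began with MAPK and a digit, MAPKAPK, MAP2K, MAP3K or MAP4K and a digit, or DUSP and a digit, and when its Cy3 signal was well above background on at least 4 of the 10 arrays. Of 75 such symbols in the RefSeq gene table, 50 matched a target sequence on the array through its accession and 43 passed the signal filter, out of 26303 genes tested in all. The 7 matched genes below the filter were DUSP15, DUSP21, MAP3K1, MAP3K14, MAPK4, MAPK10 and MAPK8IP2. For the other 25 symbols no accession on the array was matched, among them MAP2K4 and MAP2K7, MAPKAPK2 and DUSP16, and these genes were not analysed here.

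Ferrets were males of 3 months. The control group was kept at 22 °C and the cold group at 4 °C for 1 week, in groups of 7 animals, and the cold-exposed ferrets were also housed individually. All animals were anaesthetised with ketamine and medetomidine before blood was taken from the heart into heparin, and PBMC were separated on Ficoll, so that these steps are shared by both groups. RNA of 6 control and 4 cold samples was labelled with Cy3, and each sample was hybridised to an array of its own against the same Cy5-labelled pool of PBMC RNA mixed with RNA of other tissues. The value of a gene is the log2 ratio of Cy3 to Cy5 after loess normalisation, averaged over its probes. A difference between groups is therefore a log2 change of that ratio (cold minus control), and the ratio of 1 gene cannot be set against that of another as a level.

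The MAP kinase cascade relays signals from the cell surface and from stress to the nucleus. MAP4K kinases can act on MAP3K kinases, which phosphorylate MAP2K kinases, and these activate the MAP kinases themselves, which include the ERK, JNK and p38 families and ERK5. Activated MAP kinases switch on downstream kinases such as the MAPKAPK proteins, and DUSP phosphatases take the phosphates off again. Several DUSP genes are themselves induced by the cascade, so that they act as feedback brakes. In blood cells the p38 branch is known for its part in inflammatory signalling of monocytes and neutrophils, and the ERK branch for its part in lymphocyte receptor signalling. These arrays measure RNA, and neither the amount nor the phosphorylation of any kinase.

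Array quality was similar between groups for the ferret channel but not for the reference channel. Each array had 50.4 to 63.5% of its spots well above background in the ferret channel, Cy3. In the reference channel, Cy5, the share was 27.0 to 54.9% on control arrays against 40.5 to 64.0% on cold arrays. Markers of the cell types that Ficoll separation keeps were measured, with all 8 T cell markers, 5 of 7 B cell markers and 5 of 7 monocyte markers past the signal filter, but neutrophil markers passed as well (7 of 10). Cold replicate 3 stood apart among the cold arrays. It held the highest value of all 10 arrays for 15 of the 27 members that were higher in cold, against 3, 3 and 2 members for cold replicates 1, 2 and 4. Arrays lay at position 1 or 2 of their slide, and control replicates 3 and 5 and cold replicates 3 and 4 were at position 2. Values without cold replicate 3 or within a slide position are given beside the larger changes that they moved by over 1.5 times.

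None of the 26303 genes passed an adjusted p of 0.05 in limma with Benjamini-Hochberg adjustment (lowest 0.0576), nor by the methods' t-test, while 6501 genes had an unadjusted limma p under 0.05 and 5751 by the t-test. The unadjusted threshold of 0.01, which the study used, is therefore the threshold at which members are described below as risen or fallen. At that threshold 8.64% of all genes differed between cold and control in limma, 5.21% higher and 3.43% lower. Of the genes past it, 39.7% were lower in cold after loess, 81.5% after median centring of each array and 53.8% in the value table deposited by the authors. Median centring moved the median of all genes by −0.41 on the log2 scale, so that changes under that setting are given relative to all genes.

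Among the 43 members, 5 rose and 2 fell in cold, which is 16.3% of the members against the 8.64% of all genes. MAPKAPK3, MAPK13, MAP3K8, MAP3K11 and MAP3K19 rose, and MAP3K7 and MAP2K6 fell, although the direction of MAPKAPK3 and MAP3K11 relative to all genes turned under median centring and in the authors' value table. The methods' t-test called the same 7 members (and 6.56% of all genes), and none passed the adjusted threshold (lowest adjusted limma p of a member 0.0638). The 4 cold values lay outside the range of the 6 control values for 8 members (18.6%), against 5.22% of all genes. In 6 of them they lay above (MAPKAPK3, MAPK13, MAP3K8, MAP3K11, MAP2K2 and MAPKAPK5, against 3.07% of all genes) and in the other 2 below (MAP3K7 and MAP2K6, against 2.15%). Over 24 alternatives in processing and samples, the call was kept in 22 for MAP3K19, 21 for MAPK13, 20 for MAPKAPK3, 19 for MAP3K7, 16 for MAP2K6, 15 for MAP3K8 and 7 for MAP3K11. Without cold replicate 3 the number of members past the unadjusted threshold was 4 (9.3%), against 4.85% of all genes. With the processed signals of the scanner software in place of the corrected ones it was 3 (6.98%), against 7.19% of all genes, and it was 1 (2.33%) under median centring and 1 in the authors' value table, against 4.42% and 4.16%. In total 27 members were higher and 16 lower in cold and their median change was 0.10 (log2), while 48.0% of all genes were higher and 52.0% lower with a median of −0.01. This lean depended on the scaling. Under median centring 21 members lay above and 22 below the median of all genes, and the authors' values gave the same counts. Processed signals gave 23 above and 20 below. The lean was kept in Cy3 alone (30 above, 13 below) and without background subtraction (26 above, 17 below).

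All members past the threshold were kinases. Of the 26 kinases of the cascade, 18 were higher and 8 lower in cold, and their median change was 0.17 (log2). Of the 15 DUSP genes, 8 were higher and 7 lower with a median of 0.02, none had a p under 0.01, and in all of them the groups overlapped. DUSP1 had the largest change of the phosphatases and the lowest p among them. This holds for the ratio. In Cy3 alone the median was 0.06 for the kinases and 0.11 for the DUSP genes. There 4 of the 26 kinases and 2 of the 15 DUSP genes (DUSP10 and DUSP13) passed the threshold, against 9.84% of all genes. Relative to all genes, the kinase median was also below the DUSP median with processed signals (0.04 against 0.07) and in the authors' value table (−0.01 against 0.15). The difference between kinases and phosphatases was not tested, since the members are not replicates of a condition.

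**Figure D1:**
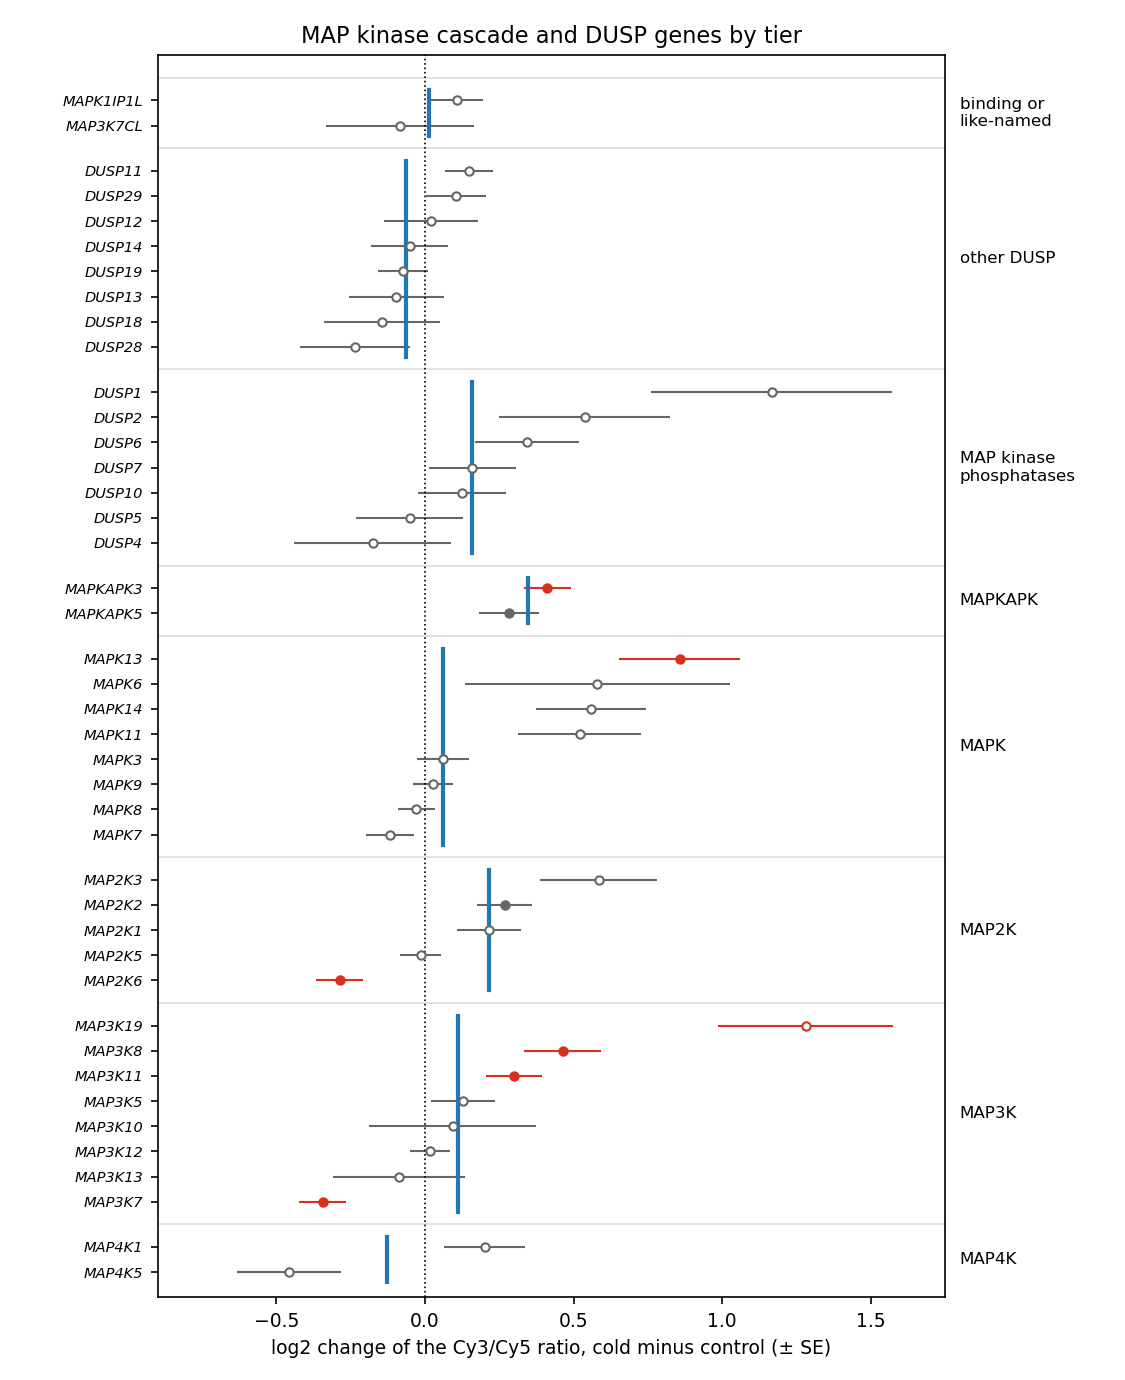
Log2 change of the Cy3/Cy5 ratio (cold minus control, x axis, bars ± SE from limma) for 42 members, grouped by tier from MAP4K at the bottom to the phosphatases and, at the top, the like-named genes. Red marks an unadjusted limma p under 0.01, filled circles mark genes whose 6 control and 4 cold values do not overlap, and blue lines are tier medians over all members, which run from −0.13 for MAP4K to 0.35 for MAPKAPK, with those of MAP2K and MAPKAPK falling below the median of all genes under median centring and in the authors' value table.

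The first tier held only MAP4K1 (HPK1, a kinase of T and B cell receptor signalling) and MAP4K5, and neither passed the threshold. MAP4K5 had log2 ratios of −1.55, −0.74, −0.79 and −0.61 in cold replicates 1 to 4, while the control arrays ranged from −0.83 to −0.33 with a median of −0.42. All cold values lay below 5 of the 6 controls, and the groups overlapped through control replicate 5. The log2 change was −0.46 (SE 0.17, unadjusted limma p = 0.024, exact permutation p = 0.019). It was −0.74 among the arrays at slide position 1 and −0.11 at position 2, and −0.25 without cold replicate 1. In the Cy3 channel alone MAP4K5 changed by 0.04, so that the lower ratio was not seen in the ferret channel. MAP4K1 had log2 ratios of 0.92, 0.64, 0.53 and 1.02 in cold and of 0.36 to 0.97 in control (median 0.50), and the groups overlapped. Its log2 change was 0.20 (SE 0.14), within the spread between arrays, with 0.27 at slide position 1 and 0.07 at position 2, and it was −0.10 in Cy3 alone. Without cold replicate 4 it was 0.12, and relative to all genes it turned to −0.17 under median centring and −0.18 in the authors' value table.

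The MAP3K tier was mixed, with 3 of its 8 measured genes risen and 1 fallen, although MAP3K11 turned in direction relative to all genes under median centring and in the authors' value table. MAP3K19 had log2 ratios of 2.24, 0.93, 2.61 and 1.88 in cold replicates 1 to 4, and of 0.10 to 0.94 in control (median 0.78). The 3 high cold arrays were far above every control array, and cold replicate 2 lay at the upper end of the controls. The change of 1.28 on the log2 scale (SE 0.29, 2.43-fold, unadjusted limma p = 0.00112, exact permutation p = 0.00952) was the largest of all members. It was 1.03 among the arrays at slide position 1 and 1.46 at position 2. Without cold replicate 3 it was 1.05, and without cold replicate 2 it was 1.61 with an adjusted limma p of 0.0114. The pair of target sequences for this gene differed in size, with changes of 0.28 and 1.53, both higher in cold. Of its 8 probes 5 were kept, and the change of 0.28 was that of 1 probe. No probe of MAP3K19 was well above background in Cy5 on more than 3 control arrays.

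MAP3K8 (TPL2 or COT), which links inflammatory receptors to the ERK branch in myeloid cells, had log2 ratios of 0.70, 0.69, 1.20 and 0.73 in cold. The control arrays ranged from 0.20 to 0.62 with a median of 0.32, so that the groups did not overlap, with cold replicate 3 well above the other cold arrays. The log2 change was 0.46 (SE 0.13, unadjusted limma p = 0.00423, exact permutation p = 0.00952). Without cold replicate 3 the change was 0.34 and missed the threshold. It also missed it narrowly without control replicate 1 (0.43) and without control replicate 2 (0.43). All 5 target sequences of MAP3K8 were higher in cold, by 0.42 to 0.49.

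MAP3K11 (MLK3, a mixed-lineage kinase that acts towards JNK) had log2 ratios of 0.74, 0.95, 0.83 and 0.82 in cold and of 0.27 to 0.71 in control (median 0.53). The groups did not overlap, but the gap between them was small. The log2 change of 0.30 (SE 0.09, unadjusted limma p = 0.0082, exact permutation p = 0.00952) turned to −0.15 relative to all genes under median centring and to −0.13 in the authors' value table. It missed the threshold with slide position as a block (0.28) and in 7 of 10 fits that left out 1 array, namely without control replicates 1 (0.30), 2 (0.29), 4 (0.30) or 6 (0.25) or cold replicates 2 (0.26), 3 (0.30) or 4 (0.30). In Cy3 alone the change was 0.08. It was 0.38 at slide position 1 and 0.14 at position 2.

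MAP3K7 (TAK1), the kinase that couples cytokine and Toll-like receptors to both the MAP kinase and NF-kB pathways, was the clearest lower member. Its log2 ratios were −0.52, −0.37, −0.28 and −0.28 in cold, against −0.11 to 0.15 in control with a median of −0.04. All 4 cold arrays lay below all 6 control arrays, and cold replicate 1 was lowest. The ratio fell by 0.34 on the log2 scale (log2 change −0.34, SE 0.08, unadjusted limma p = 0.00124, exact permutation p = 0.00476), and all 8 of its probes were lower. In the Cy3 channel alone the change was −0.17, within the spread between arrays, while the Cy5 signal of the reference on the same spots was higher on the cold arrays by 0.15 (exact permutation test, two-sided p = 0.0476). The change was −0.44 at slide position 1 and −0.23 at position 2. With replicate number as a block it was −0.31 and missed the threshold. MAP3K7 stayed below the median of all genes in each of the 6 scalings tried.

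The remaining MAP3K genes did not pass the threshold. MAP3K5 (ASK1, which responds to oxidative stress) had a log2 change of 0.13 (SE 0.11). MAP3K12 and MAP3K13, related kinases best known from neurons, had changes of 0.02 (SE 0.07) and −0.09 (SE 0.22). Relative to all genes MAP3K12 was 0.35 under median centring and 0.22 in the authors' value table, and MAP3K13 turned to 0.53 and 0.60. MAP3K10 had a change of 0.09 (SE 0.28), with cold values between −1.20 and 0.55. At slide positions 1 and 2 the MAP3K10 change was 0.50 and −0.41, and with processed signals it was 0.74 relative to all genes. The median of the tier was 0.11, and 0.05 without cold replicate 3.

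In the MAP2K tier only MAP2K6 (MKK6), an activator of p38, passed the threshold, and it fell in cold. Its log2 ratios were −0.21, −0.21, −0.32 and −0.32 in cold replicates 1 to 4, and those of control ranged from −0.11 to 0.21 with a median of −0.00. No cold array reached the lowest control array. The log2 change was −0.29 (SE 0.08, unadjusted limma p = 0.00377, exact permutation p = 0.00476). It was −0.32 in Cy3 alone, where it missed the threshold and the groups overlapped. It was negative relative to all genes in each scaling, but only −0.05 in the authors' value table, where its target sequences were averaged. The study lists MAP2K6 among its top regulated genes, lower in cold, by the sequence that changed here by −0.35. The call was lost, with the same direction, without cold replicate 3 (−0.27) or cold replicate 4 (−0.27), with processed signals (−0.34), with replicate number as a block (−0.33) and at slide positions 1 and 2 alone (−0.22 and −0.36). Its pair of target sequences changed by −0.05 and −0.35.

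MAP2K3 (MKK3), the other dedicated p38 activator, had log2 ratios of 1.07, 1.08, 1.92 and 1.77 in cold, against 0.56 to 1.22 in control (median 0.88). Cold replicates 3 and 4 lay above every control array, and cold replicates 1 and 2 lay within the control range. The change of 0.58 (SE 0.20, unadjusted limma p = 0.0126, exact permutation p = 0.0333) stayed just outside the threshold. It was 0.34 at slide position 1 and 0.69 at position 2, where cold replicates 3 and 4 lay. With slide position as a block it was 0.49 and passed the threshold, and it also passed without control replicate 3 (0.65), cold replicate 1 (0.71) or cold replicate 2 (0.71). In Cy3 alone it was 0.55, where the groups did not overlap and the adjusted limma p was 0.0436. Without cold replicate 3 the change was 0.43. Relative to all genes MAP2K3 was 0.60 after loess, 0.19 under median centring and 0.17 in the authors' value table.

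The ERK activators did not pass the threshold. MAP2K2 (MEK2) had log2 ratios of 0.11, 0.36, −0.02 and −0.05 in cold and −0.31 to −0.09 in control, and the groups did not overlap. Its log2 change of 0.27 (SE 0.09, exact permutation p = 0.00476) turned to −0.41 relative to all genes under median centring and to −0.26 in the authors' value table, and it was 0.07 in Cy3 alone. At slide positions 1 and 2 it was 0.42 and 0.09. MAP2K1 (MEK1) had a change of 0.21 (SE 0.11) that turned to −0.37 relative to all genes under median centring and to −0.29 in the authors' value table, and it was 0.12 without cold replicate 3. MAP2K5, the activator of ERK5, had a change of −0.01 (SE 0.07). The median of the 5 MAP2K genes was 0.21, and 0.12 without cold replicate 3. Relative to all genes it was −0.36 under median centring and −0.08 in the authors' value table.

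Among the 9 MAP kinases themselves, MAPK13 was the only one past the threshold. MAPK13 encodes p38 delta, a p38 isoform with a known role in neutrophils and macrophages. Its log2 ratios were −0.44, −0.09, 0.67 and −0.36 in cold and −1.13 to −0.58 in control, with a control median of −0.99. The cold arrays were all above the control arrays, and cold replicate 3 was again highest. The log2 change was 0.86 (SE 0.20, 1.81-fold, unadjusted limma p = 0.0015, exact permutation p = 0.00476), with all 4 probes between 0.75 and 0.96. In Cy3 alone it was 0.93 with an adjusted limma p of 0.0428. Without cold replicate 3 it was 0.61 and still past the threshold, and it was 0.65 at slide position 1 and 1.07 at position 2. Under median centring it lay 0.26 above the median of all genes, with a change of −0.16 before that median was subtracted.

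The other measured p38 genes were also higher in cold but did not pass. MAPK14, the widely expressed p38 alpha, had log2 ratios of 0.61, 0.86, 1.47 and 0.29 in cold and of 0.12 to 0.37 in control (median 0.25). The first 3 cold replicates lay above all controls and cold replicate 4 lay among them. The change was 0.56 (SE 0.18, unadjusted limma p = 0.0114, exact permutation p = 0.0143). It was 0.34 without cold replicate 3, and it passed the threshold without cold replicate 4 (0.73). MAPK11 (p38 beta) had log2 ratios of 1.23, 0.88, 1.70 and 0.94 in cold and of 0.34 to 1.27 in control (median 0.57). Control replicate 5 overlapped the cold arrays, and the change was 0.52 (SE 0.21, exact permutation p = 0.0524). It passed the threshold without control replicate 5 (0.64) and with replicate number as a block (0.60), and it was 0.35 without cold replicate 3. At slide positions 1 and 2 it was 0.59 and 0.25. Relative to all genes MAPK11 was 0.28 under median centring and 0.23 in the authors' value table.

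None of the ERK, JNK and ERK5 genes passed the threshold. MAPK3 (ERK1) had log2 ratios of −0.02, −0.06, −0.20 and −0.10 in cold and of −0.33 to −0.03 in control, a change of 0.06 (SE 0.09). The cold arrays lay within the control range except for cold replicate 1, just above it. MAPK8 (JNK1) and MAPK9 (JNK2) had changes of −0.03 (SE 0.06) and 0.03 (SE 0.07), with standard errors lower than that of any p38 gene of this tier. Their reference signal was weak, however. No MAPK8 probe was well above background in Cy5 on more than 1 control and 3 cold arrays, and no MAPK9 probe on more than 3 control arrays. The p38 genes of this tier passed in Cy5 on all arrays. Cy5 on the MAPK8 spots was higher on cold arrays (0.12, exact permutation test, two-sided p = 0.0286). MAPK7 (ERK5) had log2 ratios of −0.00, 0.04, −0.11 and 0.01 in cold and of −0.09 to 0.21 in control (median 0.12), with overlapping groups and a change of −0.12 (SE 0.08). MAPK6 (ERK3, an atypical member) varied most among controls, from −0.52 to 2.11, and its change of 0.58 (SE 0.45), the second highest of the tier, was within that spread. It was 0.36 without cold replicate 3, and 0.25 and 0.83 at slide positions 1 and 2. Relative to all genes MAPK6 was 0.21 under median centring and 0.22 in the authors' value table.

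**Figure D2:**
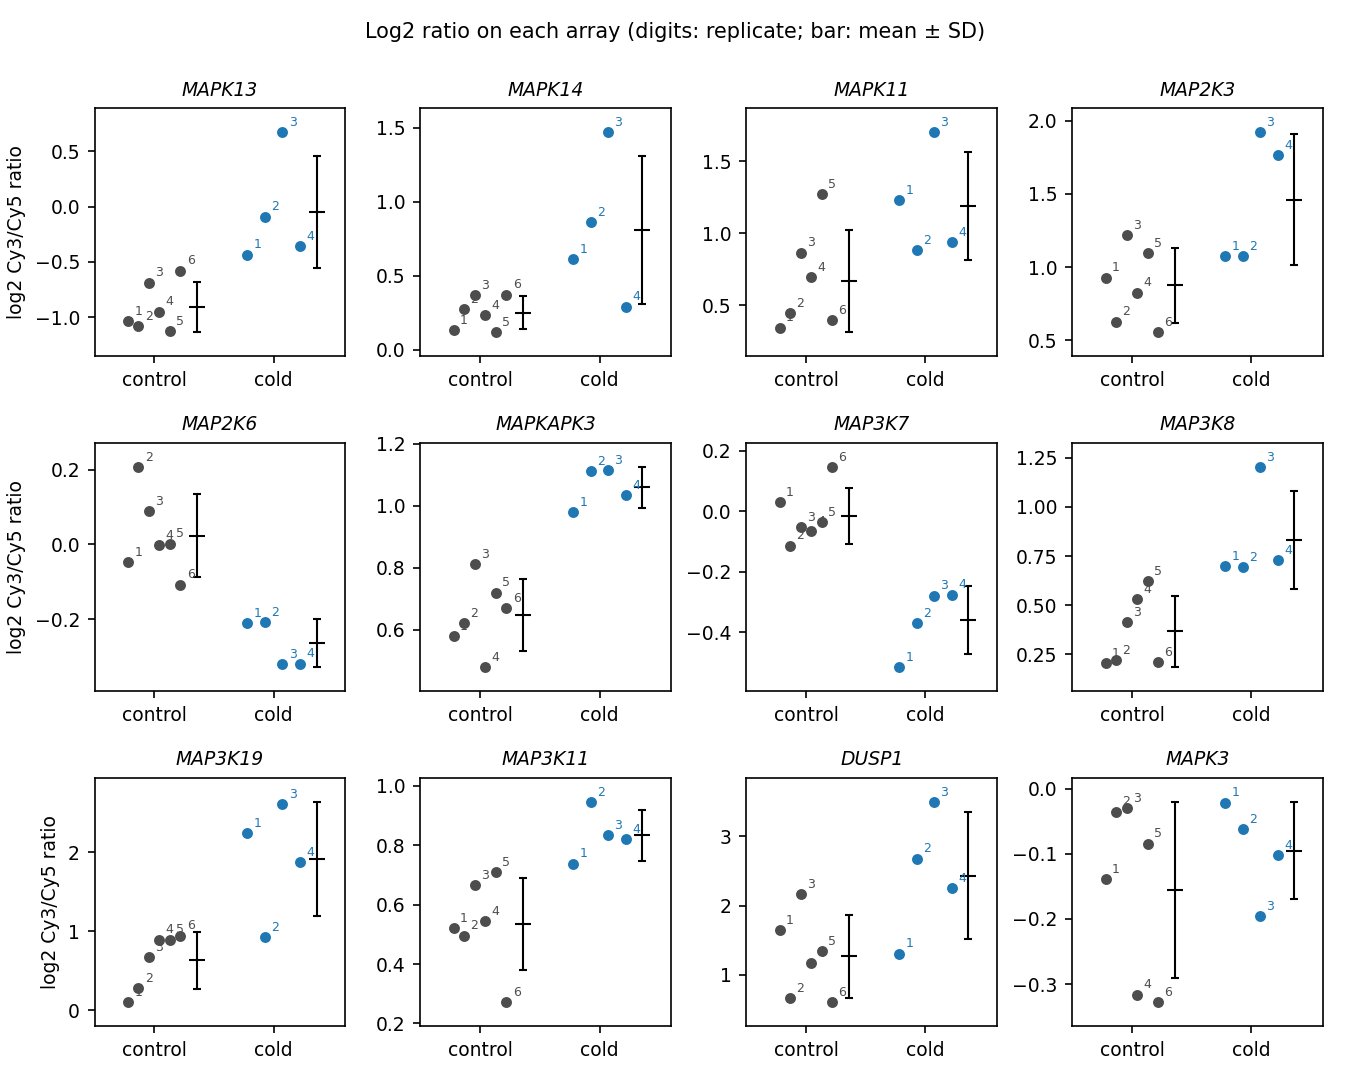
Log2 Cy3/Cy5 ratio (y axis) on each of the 6 control and 4 cold arrays for 12 members, with the replicate number beside each point and the mean ± SD as a bar. MAPK13, MAP3K7, MAP3K8, MAP2K6, MAPKAPK3 and MAP3K11 show no overlap between groups, MAPK3 overlaps, and the direction of MAPKAPK3 and MAP3K11 relative to all genes turned under median centring and in the authors' value table.

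MAPKAPK3, a kinase that p38 activates and that acts on proteins controlling cytokine messages, had the lowest p of all members. Its log2 ratios were 0.98, 1.11, 1.11 and 1.03 in cold and 0.48 to 0.81 in control, with a control median of 0.65. The cold arrays were close together and all above the controls. The log2 change of 0.41 (SE 0.08, 1.33-fold, unadjusted limma p = 0.000312, adjusted p = 0.0638, exact permutation p = 0.00476) turned to −0.05 relative to all genes under median centring and to −0.03 in the authors' value table. It kept p under 0.01 in all 10 fits that left out 1 array, with changes of 0.38 to 0.45, and without cold replicate 2 the adjusted p was 0.0432. In Cy3 alone it was 0.31 and the groups did not overlap. All 8 probes were higher, by 0.20 to 0.61. At slide positions 1 and 2 the change was 0.46 and 0.31.

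MAPKAPK5 (PRAK), the other measured kinase of this tier, had log2 ratios of 0.63, 0.69, 0.63 and 0.68 in cold and of 0.14 to 0.61 in control. The groups did not overlap, but controls 3 and 5 came within reach of the cold arrays. The change of 0.28 (SE 0.10, exact permutation p = 0.0143) turned to −0.03 relative to all genes under median centring and to −0.04 in the authors' value table, and it was 0.40 at slide position 1 and 0.06 at position 2.

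When kinases were grouped into p38, JNK and ERK5 modules, the p38 genes had the largest median change after loess, but not under median centring or in the authors' value table, where the JNK median was higher. The modules follow the textbook pairing of activators, kinases and downstream kinase, and were drawn up with results of these data known, so their medians are a description. The p38 module (MAP2K3, MAP2K6, MAPK11, MAPK13, MAPK14 and MAPKAPK3) showed a median change of 0.54 (log2), and 5 of the genes were higher and 1 lower. On each array, the median of the 6 genes after subtraction of their control means was −0.10 to 0.18 in control. In cold replicates 1 to 4 it was 0.35, 0.34, 1.04 and 0.33. Every cold array was thus above every control array, with cold replicate 3 well above the rest, and the median change without that replicate was 0.37. MAP2K3, MAPK11, MAPK13 and MAPK14 stayed above and MAP2K6 below the median of all genes in each of the 6 scalings, while MAPKAPK3 turned in 2 of them. The sizes were smaller in those 2. Relative to all genes the p38 median was 0.55 after loess, 0.13 under median centring and 0.15 in the authors' value table, and the change of MAPK14 was 0.57, 0.07 and 0.13.

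The JNK genes MAPK8 and MAPK9 had a median of −0.00, and the ERK5 genes MAP2K5 and MAPK7 of −0.07. Relative to all genes the JNK median was 0.01 after loess, 0.40 under median centring and 0.34 in the authors' value table. The median of the JNK genes on single control arrays was −0.04 to 0.08, and on single cold arrays −0.03 to 0.05. Both JNK genes had a weak Cy5 signal on part of the control arrays. The activators MAP2K4 and MAP2K7 of the JNK branch and MAPKAPK2 and MAPK12 of the p38 branch were not analysed here, so that the modules are incomplete.

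**Figure D3:**
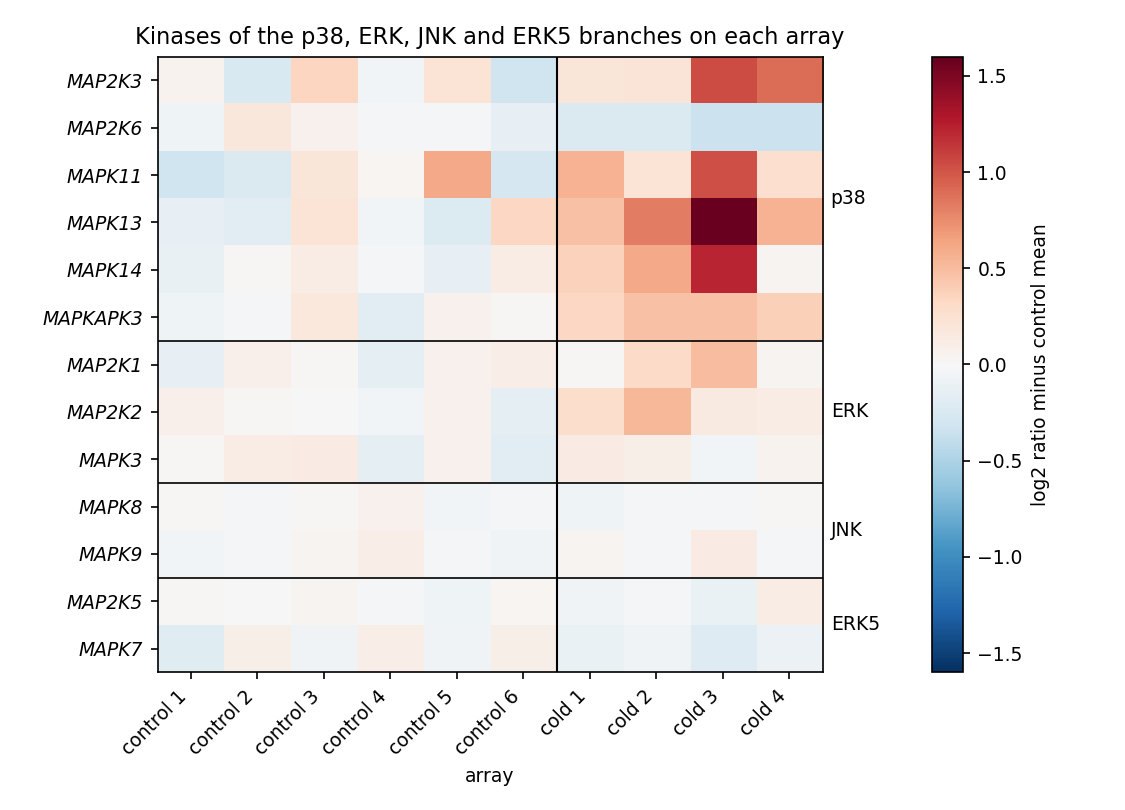
Heat map of 13 kinases of the p38, ERK, JNK and ERK5 branches (rows) on the 10 arrays (columns), coloured by the log2 ratio minus the control mean of the gene. The p38 rows other than MAP2K6 are red on the cold arrays, apart from the pale MAPK14 of cold replicate 4, and deepest in cold replicate 3, MAP2K6 is blue on all 4 cold arrays, and the JNK rows stay pale, while MAPKAPK3 fell below the median of all genes under median centring and in the authors' value table.

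Of the 7 typical MAP kinase phosphatases, 5 were higher and 2 lower in cold, with none past the threshold and a median of 0.16, or 0.09 without cold replicate 3. DUSP1 (MKP1), an immediate early gene that inactivates p38 and JNK, had log2 ratios of 1.31, 2.68, 3.50 and 2.25 in cold and 0.61 to 2.16 in control (median 1.25). Cold replicates 2, 3 and 4 lay above every control and cold replicate 1 lay among them. The log2 change was 1.17 (SE 0.41, 2.25-fold, unadjusted limma p = 0.0149, exact permutation p = 0.0429), the second largest of all members. It was 0.81 without cold replicate 3, and it passed the threshold without cold replicate 1 (1.54) or control replicate 3 (1.35). DUSP1 stayed above the median of all genes in each scaling.

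DUSP2 (PAC1), a phosphatase of activated leukocytes, had log2 ratios of 0.31, 0.83, 1.70 and 0.60 in cold and of −0.24 to 0.96 in control, a change of 0.54 (SE 0.29) that was 0.26 without cold replicate 3. Relative to all genes DUSP2 was 0.12 under median centring and 0.15 in the authors' value table. DUSP6 (MKP3, which is specific for ERK) had log2 ratios of 0.56, 0.45, 1.26 and 0.43 in cold and of −0.07 to 0.52 in control. Its change of 0.34 (SE 0.17) was 0.15 without cold replicate 3, and relative to all genes it was −0.17 under median centring and −0.10 in the authors' value table. For DUSP2 too the highest value was that of cold replicate 3, and neither gene passed.

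DUSP4, DUSP5, DUSP7 and DUSP10 had log2 changes of −0.18 (SE 0.26), −0.05 (SE 0.18), 0.16 (SE 0.15) and 0.12 (SE 0.15). DUSP4 had log2 ratios of −1.48, −0.32, −1.28 and −0.38 in cold, which reached beyond the low end of the controls (−1.18 to −0.24, median −0.65), and leaving out cold replicate 3 gave a change of −0.04 and leaving out cold replicate 1 one of 0.03. Without cold replicate 3, DUSP7 changed by 0.05 and DUSP5 by 0.09, and DUSP10 changed by −0.15 at slide position 1 and by 0.47 at position 2. Relative to all genes DUSP7 turned to −0.11 under median centring and −0.17 in the authors' value table, and DUSP4 to 0.36 and 0.21. In the same 2 scalings DUSP10 was 0.86 and 0.66, and DUSP5 was −0.56 and −0.50. With processed signals DUSP10 was 0.55 relative to all genes. DUSP4 and DUSP10 differed between the readouts. In Cy3 alone DUSP10 (MKP5, which acts on p38 and JNK) was higher by 0.65, past the unadjusted threshold, and DUSP4 (MKP2) by 0.57, which was not. The Cy3 median of the 7 typical phosphatases was 0.57, against 0.16 for the ratio.

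The 8 other DUSP genes (DUSP11 to DUSP14, DUSP18, DUSP19, DUSP28 and DUSP29), which include phosphatases with RNA, lipid or other protein substrates, had changes between −0.23 and 0.15 and a median of −0.06. Relative to all genes they ran from −0.76 (DUSP13) to 0.92 (DUSP29) under median centring. In the authors' value table they ran from −0.63 (DUSP28) to 0.69 (DUSP29). DUSP18 turned to 0.60 and 0.52 in these 2 scalings. None passed the threshold for the ratio. DUSP11, which acts on the 5′ ends of RNA, had the highest change in this group (0.15, SE 0.08). Its log2 ratios were 0.52, 0.37, 0.57 and 0.33 in cold and 0.17 to 0.39 in control (median 0.31), so that cold replicates 1 and 3 lay above the controls. DUSP28 had the lowest change (−0.23, SE 0.18), with log2 ratios of −0.12, −0.22, −0.58 and −1.14 in cold and of −0.58 to −0.07 in control (median −0.28). Its low value was that of cold replicate 4, without which the change was −0.03, and the change was 0.02 at slide position 1 and −0.39 at position 2. Relative to all genes DUSP28 was −0.64 under median centring and −0.63 in the authors' value table. In Cy3 alone DUSP13 was lower by 0.46 (log2 change −0.46) with an adjusted p of 0.0369 in limma and no overlap between groups, while its ratio changed by −0.10 (SE 0.16). The Cy5 signal on the DUSP13 spots was also lower on cold arrays (−0.25, exact permutation test, two-sided p = 0.0381).

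The 2 members that carry the name of a kinase without being one were MAPK1IP1L and MAP3K7CL. MAPK1IP1L had log2 ratios of 0.07, 0.23, 0.37 and 0.24 in cold and of −0.02 to 0.32 in control, a change of 0.11 (SE 0.09). MAP3K7CL had log2 ratios of −0.94, −0.22, −1.21 and −1.30 in cold and of −1.44 to −0.23 in control, a change of −0.08 (SE 0.25). The groups overlapped in both.

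The Cy3 channel alone, quantile normalised between arrays, gave the same direction as the ratio in 33 of the 43 members. At the unadjusted threshold it called 6 members, 5 higher and 1 lower, where 9.84% of all genes were called (5.48% higher and 4.36% lower). MAPKAPK3, MAP3K19 and MAPK13 were called by both readouts. After adjustment 3 members passed (MAP2K3, MAPK13 and DUSP13), where 2.82% of all genes did. A probe well above background on every array was found for 40 members in Cy3 (all but DUSP18, DUSP29 and MAP3K13) and for 28 in Cy5, and no member had a saturated spot. The Cy5 signal of the members differed between groups by −0.27 to 0.16 on the log2 scale, and in 3 members (MAP3K7, DUSP13 and MAPK8) the exact permutation p for Cy5 was under 0.05. The same share over all genes was not computed, so that this count has nothing to be set against.

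**Figure D4:**
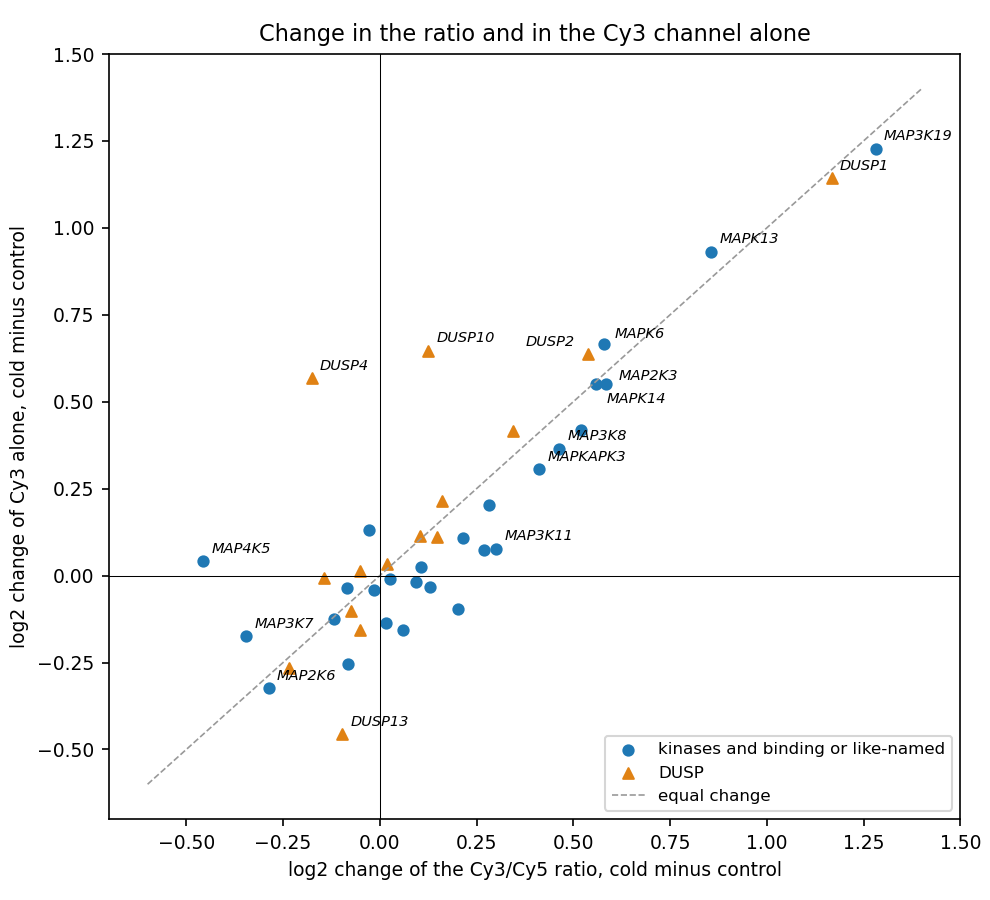
Log2 change of Cy3 alone (y axis) against that of the Cy3/Cy5 ratio (x axis), cold minus control, for 42 members, with circles for kinases and like-named genes, triangles for DUSP genes and a dashed line of equal change. MAPK13, MAP3K19 and DUSP1 lie near the line, whereas DUSP10, DUSP4 and MAP4K5 lie above it and MAP3K11 below it.

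The 43 members were measured by 232 probes on 68 target sequences. In 30 members all probes moved in the same direction, and of the 16 members with more than 1 sequence, 13 had all sequences on the same side. MAPK14, for example, had 8 probes that were all higher, by 0.42 to 0.63. When sequences were tested in place of genes, 13 of the 68 (19.1%) had an unadjusted p under 0.01, against 8.6% of all target sequences. Sequences of 1 gene were counted there as separate units, although they are not independent. MAP3K8, MAP3K7 and MAPKAPK3 each gave more than 1 of the 13. No probe or gene sequence was at hand, and none is given.

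Other genes of the pathway were counted from a list of 63, of which 39 were measured. Of these, 22 were higher and 17 lower in cold, with a median of 0.04, and none had an unadjusted limma p under 0.01 (8 had one under 0.05, and 1 passed 0.01 by the methods' t-test). Over all genes 8.64% had a limma p under 0.01, 24.7% had one under 0.05, and 6.56% passed 0.01 by the t-test. The 14 upstream genes, which include RAS exchange factors and RAF kinases, had a median of 0.04 (9 higher). SOS1, a RAS exchange factor, had a change of 0.35 (SE 0.11). The 7 inhibitors had a median of −0.09, with changes from −0.50 (SE 0.20) for SPRED1 and −0.49 (SE 0.21) for SPRY4 to 0.21 (SE 0.28) for PEBP1. In Cy3 alone SPRED1 had the opposite sign (0.35) and SPRY4 a change of −0.06. SPRED3 was the only one of the 39 whose groups did not overlap, with a change of 0.13 (SE 0.06), where 5.22% of all genes did not. The 2 other kinases, NLK and RPS6KA1, had changes of −0.18 (SE 0.11) and 0.04 (SE 0.08).

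The 16 targets, mostly immediate early transcription factors, had a median of 0.09 with 9 higher. JUN had a change of 0.68 (SE 0.29), JUNB of 0.50 (SE 0.21), FOS of 0.40 (SE 0.45), IER3 of 1.08 (SE 0.40) and JUND of −0.37 (SE 0.13). Their mean log2 ratio was 0.85 in cold replicate 3 and between −0.03 and 0.18 in the other cold arrays, with controls from 0.01 to 0.34. The FOS ratio of cold replicate 3 was 4.08, against 1.21 to 2.03 in the other cold arrays. The array with the highest p38 and DUSP1 values was thus also the highest for these targets, and the part of that in the results was not tested.

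Markers of blood cell types moved with the groups. Over the 7 neutrophil markers the mean log2 ratio was 1.52 to 1.94 on cold arrays and 0.51 to 1.22 on control arrays, with all 7 higher in cold and S100A8, S100A9 and MPO past the threshold without overlap. Over 5 monocyte markers it was 0.15 to 0.72 in cold and −0.25 to 0.42 in control, with 4 higher and CD14 past the threshold (0.66, SE 0.19). Over 5 platelet markers it was 0.74 to 1.77 in cold and −0.05 to 1.25 in control, with all 5 higher and GP9 and TREML1 past the threshold. Over the 8 T cell markers it was −0.73 to −0.08 in cold and −0.14 to 0.17 in control, with 7 lower and LCK fallen (log2 change −0.75, SE 0.18). The 4 erythroid markers were all lower, at −0.85 to −0.06 in cold and 0.18 to 1.12 in control, and HBM passed the threshold. B cell and NK markers overlapped between groups, with 4 of 5 lower and 2 of 3 higher. Cold replicate 3 had the lowest T cell mean and the highest neutrophil mean of the 10 arrays. In these mixed samples, fewer cells of a type and less RNA per cell cannot be told apart, and the part of cell makeup in the p38, MAP3K and DUSP1 values was not tested.

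**Figure D5:**
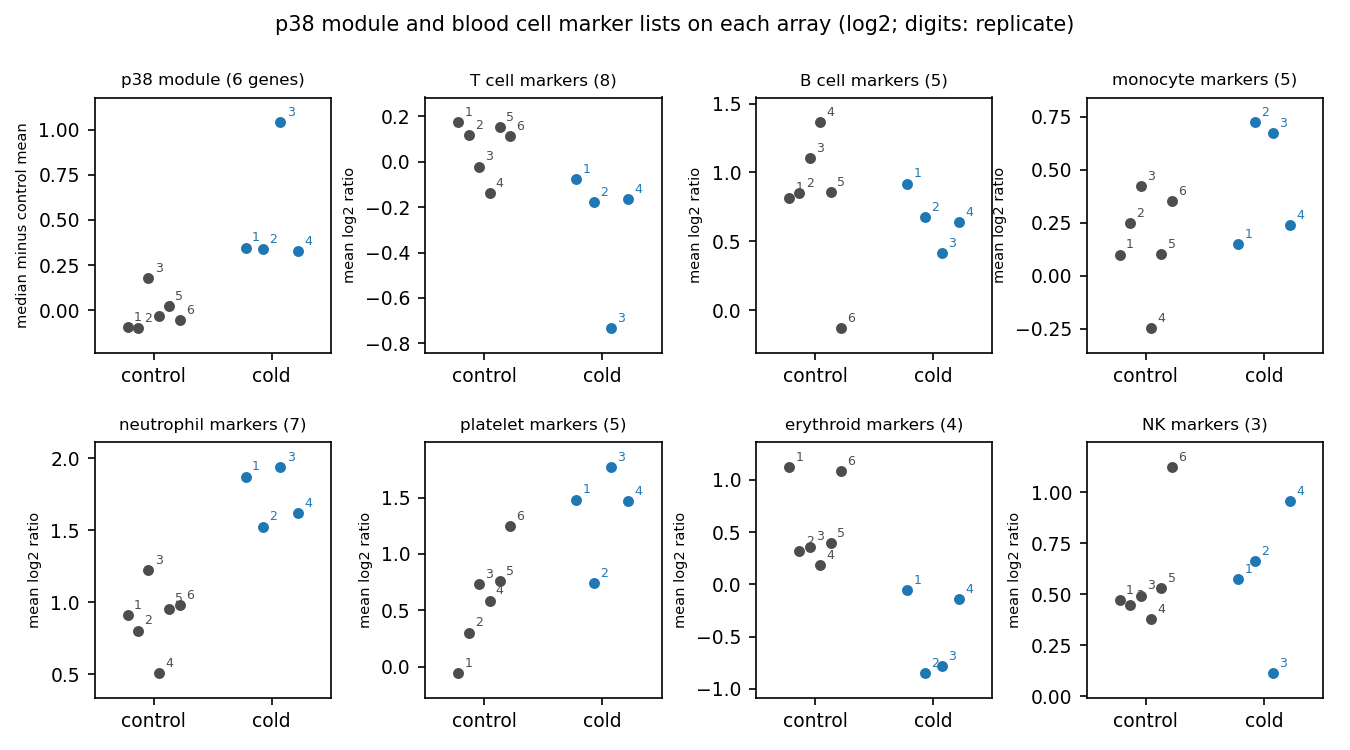
Per-array median of the 6 p38 module genes after subtraction of control means (first panel) and per-array mean log2 ratio of each blood cell marker list (other panels, number of measured markers in parentheses), with 6 control and 4 cold arrays and replicate numbers beside the points. The p38 median and the neutrophil mean lie higher on every cold array than on any control array, and the erythroid mean lies lower.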

How the data were processed

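The RNA of 6 control and 4 cold PBMC samples was measured on 10 two-colour custom arrays, with Cy3 for the sample and Cy5 for a common reference pool. Samples were grouped by their titles, and p-values measure the spread between these samples. The authors deposited spot intensities from the Agilent Feature Extraction software for each array, as median signal and local background per channel with quality flags and processed signals. A second file of the authors, as deposited, lists 1 log2 value for each target sequence and array, with column medians of 7.86 to 8.78. Set against the scanner data, its columns correlated positively with the log2 ratio (0.36 to 0.84) and with Cy3 (0.03 to 0.81, lowest for cold replicate 1), and a higher value was taken as more ferret RNA, while its scaling and centring stay unknown.

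The planned spot mean is not in the files used here, so the spot median was taken. Background was corrected by normexp (offset 50) and ratios by loess (span 0.3, 4 iterations) in limma 3.58.1 under R 4.3.3, and outlier spots were then left out. A probe was kept when at least 0.5 of its spots were well above background in Cy3 on at least 4 arrays. This left 111051 probes for 26303 genes, of which 9276 had a symbol in RefSeq (assembly ASM1176430v1.1). Spots were averaged per probe, and all kept probes of a gene were then averaged, whatever their target sequence. In the authors' value table the sequences of 1 gene were averaged instead. The groups were compared with lmFit and eBayes over all genes, at an adjusted p of 0.05 (Benjamini-Hochberg) and at the unadjusted 0.01 of the methods. Single values also had an exact permutation test over 210 splits (smallest p 0.00476). The test was checked on simulated data.

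Every member past the signal filter could be named, with values on each array for members past the threshold or without overlap, for the extremes of each tier and for the core kinases and phosphatases on which the text turns. The values of 1 member, which is counted in the totals and tier medians, are not reported here. The members, tiers, modules and gene lists were chosen with earlier results of these data known. Alternatives were the processed signals, no background subtraction, median centring, Cy3 alone, the authors' value table, 2 other filters, the median over probes, target sequences, the methods' t-test, array weights, slide position, replicate number and leaving out each array. All arrays were scanned on 1 day, each on its own slide. The number of arrays limits the precision. No genome coordinates are given, because the build behind the probes is not given in the sources used here.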

Additional observations from a re-analysis of the deposited data

Results flagged for a closer look

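Among 86 groups of values (43 members in control and in cold), 4 held an array that lay far outside the others of its group, where chance alone gives about 1 in 20. DUSP6 had a log2 ratio of 1.26 in cold replicate 3, against 0.43 to 0.56 in the other cold arrays. MAP3K8 had 1.20 in cold replicate 3, against 0.69 to 0.73 in the other cold arrays. MAP3K12 had 0.35 in control replicate 4, against 0.16 to 0.22 in the other controls. MAP4K5 had −0.83 in control replicate 5, against −0.46 to −0.33 in the other controls.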

How the results depend on the processing

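Leaving out 1 array gave 0 to 1272 genes at the adjusted threshold (633 without control replicate 5, 12 without cold replicate 1, 1272 without cold replicate 2), 1275 to 3386 genes at the unadjusted threshold (1425 without control replicate 1, 1504 without control replicate 2), and 4 to 10 members at the latter. The adjusted count was 741 with Cy3 alone, 115 with the filter on all arrays and 5 with slide position as a block. The unadjusted count over all genes was 1163 with median centring, 1093 with the authors' value table, and 1021 and 405 within slide positions 1 and 2. The number of members was 3 with processed signals (6.98%, against 7.19% of all genes), 1 with median centring (2.33% against 4.42%), 1 with the value table (2.33% against 4.16%), 2 within position 2 (4.65% against 1.54%), and 13 of 68 when target sequences were tested (19.1% against 8.6%), where no single value per gene is given. Sequences of 1 gene counted separately in that last share. Relative to all genes, the log2 change of MAP3K11 was −0.15 with median centring and −0.13 in the value table, and that of MAPKAPK3 was −0.05 and −0.03. That of MAPK13 was 0.26 and 0.39. Before the median of all genes was subtracted, MAP3K11 had −0.57 and −0.12, MAPKAPK3 had −0.47 and −0.014, and MAPK13 had −0.16 with median centring. Of the 7 members past the threshold, MAP3K19, MAP3K7, MAPK13 and MAPKAPK3 kept it in all 10 fits without 1 array, MAP2K6 in 8, MAP3K8 in 7 and MAP3K11 in 3.

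Tier medians less the median of all genes also moved. For MAP3K (0.12) the value was 0.36 with median centring, 0.27 in the value table and 0.29 within position 1, but 0.011 with Cy3 alone, 0.071 within position 2 and 0.038 to 0.26 without 1 array (lowest without cold replicate 1, and 0.060 without cold replicate 3). For MAP2K (0.23) it was 0.094 with processed signals, −0.36 with median centring, 0.11 with Cy3 alone, −0.080 in the value table, 0.10 within position 2, 0.083 by target sequences and 0.13 to 0.28 without 1 array. For MAPK (0.07) it was 0.21 with median centring and 0.22 in the value table, but −0.034 with processed signals and 0.033 to 0.10 without 1 array (lowest without control replicate 6, and 0.040 without cold replicate 1). For MAPKAPK (0.36) it was −0.037 with median centring, −0.033 in the value table and 0.19 within position 2. For the typical phosphatases (0.17) it was 0.45 with processed signals, 0.61 with Cy3 alone, 0.40 within position 2 and 0.098 to 0.28 without 1 array (lowest without cold replicate 3, highest without cold replicate 4, and 0.26 and 0.27 without cold replicates 1 and 2). For the other DUSP genes (−0.05) it was 0.041 with Cy3 alone, 0.084 in the value table and −0.078 to 0.0048 without 1 array (highest without cold replicate 4, −0.0069 without cold replicate 1 and −0.0012 without control replicate 6). For MAP4K (−0.12) it was 0.0099 with Cy3 alone, −0.23 in the value table, −0.24 and −0.0072 within positions 1 and 2, and −0.21 to −0.041 without 1 array (without cold replicates 4 and 1). The cause of these moves was not tested.

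The replicate numbers did not pair the arrays, since the deviations of same-numbered arrays correlated at −0.30, 0.54, 0.10 and −0.19. With the replicate number as a block, over replicates 1 to 4, 7 members passed the unadjusted threshold (7 higher, 0 lower), as did 2459 of all genes. The 12 members above the median of all genes in each of 6 scalings were DUSP1, DUSP2, DUSP10, DUSP29, MAP2K3, MAP3K8, MAP3K10, MAP3K19, MAPK6, MAPK11, MAPK13 and MAPK14, and the 6 below it included DUSP5, DUSP28, MAP2K6, MAP3K7 and MAPK7. Signal limits what can be said of DUSP29 and MAP3K13, each measured by 1 probe, and of the 7 members below the filter. A weak Cy5 signal limits the ratios of other members, such as MAPK8, MAPK9 and MAP3K19.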
